A study of Homo sapiens with 15 samples.

Results

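The genes described here are 36 genes of protein folding in the endoplasmic reticulum (ER), chosen by symbol and grouped by role into 5 branches. The branches were folding by BiP and HSP90 with their cofactors (11 genes), disulfide bond formation (7), the glycan lectin cycle and mannose trimming (7), retrotranslocation and ubiquitin ligation for degradation (6), and sensors and transcription factors (5). All 36 were found among the 60557 gene identifiers shared by the files, and 35 of them were among the 13157 genes with enough counts to be tested. The untested member was DERL3. The study exposed monolayers of Caco-2, a line from a human colon cancer whose confluent layers resemble small-intestinal enterocytes, to a dishwasher rinse aid and measured polyadenylated RNA by sequencing. Cells were exposed for 24 h to rinse aid diluted 1:10000 (5 libraries) or 1:40000 (5 libraries), or were left unexposed as controls (5 libraries). The 1:10000 solution is 4 times as concentrated as the 1:40000 solution. The labels do not state that replicates were separate cultures. The p-values therefore speak only of the spread among these libraries, which may be technical.

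Secreted and membrane proteins enter the ER unfolded, where BiP and its J-domain partners bind them, isomerases and oxidases pair their cysteines, and calnexin and calreticulin hold glycoproteins until they fold. Proteins that fail are trimmed of mannose, handed to a membrane ubiquitin ligase built around SYVN1 and SEL1L, pulled back into the cytosol and degraded by the proteasome. When unfolded protein builds up, the sensors IRE1 (ERN1), ATF6 and PERK raise transcription of many of these genes through XBP1 and ATF6, the unfolded protein response. Enterocytes rely on this system because they make large amounts of brush border and secreted glycoprotein.

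Library totals spanned 4333226 to 14230853 counts in controls, 5489425 to 9555632 counts at 1:10000 and 2551839 to 172092447 counts at 1:40000, and each tested member had at least 10 counts in every library. Per the file headers, the control files were made with RNA STAR and all 10 rinse aid files with HISAT2, and the gene lists differed too. In the comparisons with controls, exposure therefore cannot be told apart from aligner and annotation, while the comparison of the dilutions with each other shares both. Mitochondrial ribosomal RNA took 0.216 to 0.349% of counts in controls, 3.11 to 3.83% at 1:10000 and 0.626 to 1.24% at 1:40000, and its part in the results was not tested. Of 10 markers of an intestinal epithelial line, 9 passed the filter on low counts (LGALS4 did not). Sums here cover all listed markers of a cell type, also those that did not pass. The summed level of the 10 was 10790 to 12590 CPM (counts scaled to the TMM-adjusted library size) in controls, 12770 to 14900 CPM at 1:10000 and 10750 to 12100 CPM at 1:40000. By single genes, 2 of the 9 rose and 4 fell at 1:10000 against controls (2 of them at least 2-fold, median -0.02), 1 rose and 2 fell at 1:40000, and 2 were higher and 5 lower between the dilutions (median -0.31). Over all genes tested, 34.8% rose and 36.2% fell at 1:10000 (11.6% fell at least 2-fold), and 26.1% rose and 26% fell at 1:40000. Between the dilutions 28.3% were higher and 29% lower. Of 6 fibroblast markers 4 passed, with COL1A2 and DCN near 0, and the sums were 129.5 to 152.9, 59.3 to 78.4 and 103.7 to 133.8 CPM in the same order. Of 6 leukocyte markers 1 passed (CD14), with PTPRC at 0 everywhere, and the sums were 8.52 to 13.4, 4.07 to 5.59 and 9.93 to 16 CPM. Of 6 markers of secretory intestinal cells 1 passed (TFF3), with CHGA, DEFA5 and ATOH1 at 0, and the sums were 19.5 to 37.6, 5.17 to 13.7 and 14.9 to 28.3 CPM. The part of these cell type markers in the results was not tested. In bulk RNA, fewer cells of a type and less RNA per cell cannot be told apart.

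At 1:10000 the ER genes moved in both directions. The genes for the BiP co-chaperone DNAJB9, the sensor IRE1 (ERN1) and XBP1 rose at least 2-fold. Those for the calcium-binding lectin calreticulin (CALR), the isomerase PDIA4, the cofactor CRELD2 and the ER membrane protein WFS1 fell. Calls were made at an adjusted p under 0.05 (edgeR quasi-likelihood, Benjamini-Hochberg over all genes tested). By that rule 15 of the 35 tested members rose against controls and 14 fell. Over all genes tested, 34.8% rose and 36.2% fell, 71% in all. Of the members, 13 rose and 11 fell with no overlap between the 5 control and the 5 exposed libraries, where 57.8% of all genes did not overlap. Changes of 2-fold or more were called in 3 of the 35 tested members upward and in 1 downward, against 11.7% and 11.6% of all genes. The median log2 fold change of the members was 0.03 and that of all genes -0.02.

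At 1:40000, 11 of the 35 members rose and 15 fell against the same controls, where 26.1% of all genes rose and 26% fell (52.1% in all). No member was called with a 2-fold change (6.67% of all genes upward and 3.67% downward), and 7 rose and 12 fell without overlap (36.3% of all genes). With the deepest and the shallowest 1:40000 libraries (replicates 1 and 2) both left out, 7 members rose and 10 fell. With upper-quartile scaling the split was 12 and 11.

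Between the dilutions, 16 members were higher at 1:10000 than at 1:40000 and 12 were lower, where 28.3% of all genes were higher and 29% lower (57.3% in all). Of these, 14 higher and 5 lower members did not overlap, beside 40.3% of all genes. Without the deepest and the shallowest library 17 were higher and 8 lower, as SIL1, PDIA5, OS9 and CREB3L2 lost their lower calls. Upper-quartile scaling gave 15 and 13. The members higher by 2-fold or more were DNAJB9 and ERN1, and none was lower by 2-fold (3.38% and 5.65% of all genes). The plot of fitted changes sets the 35 members side by side in the 3 comparisons.

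**Figure D1:**
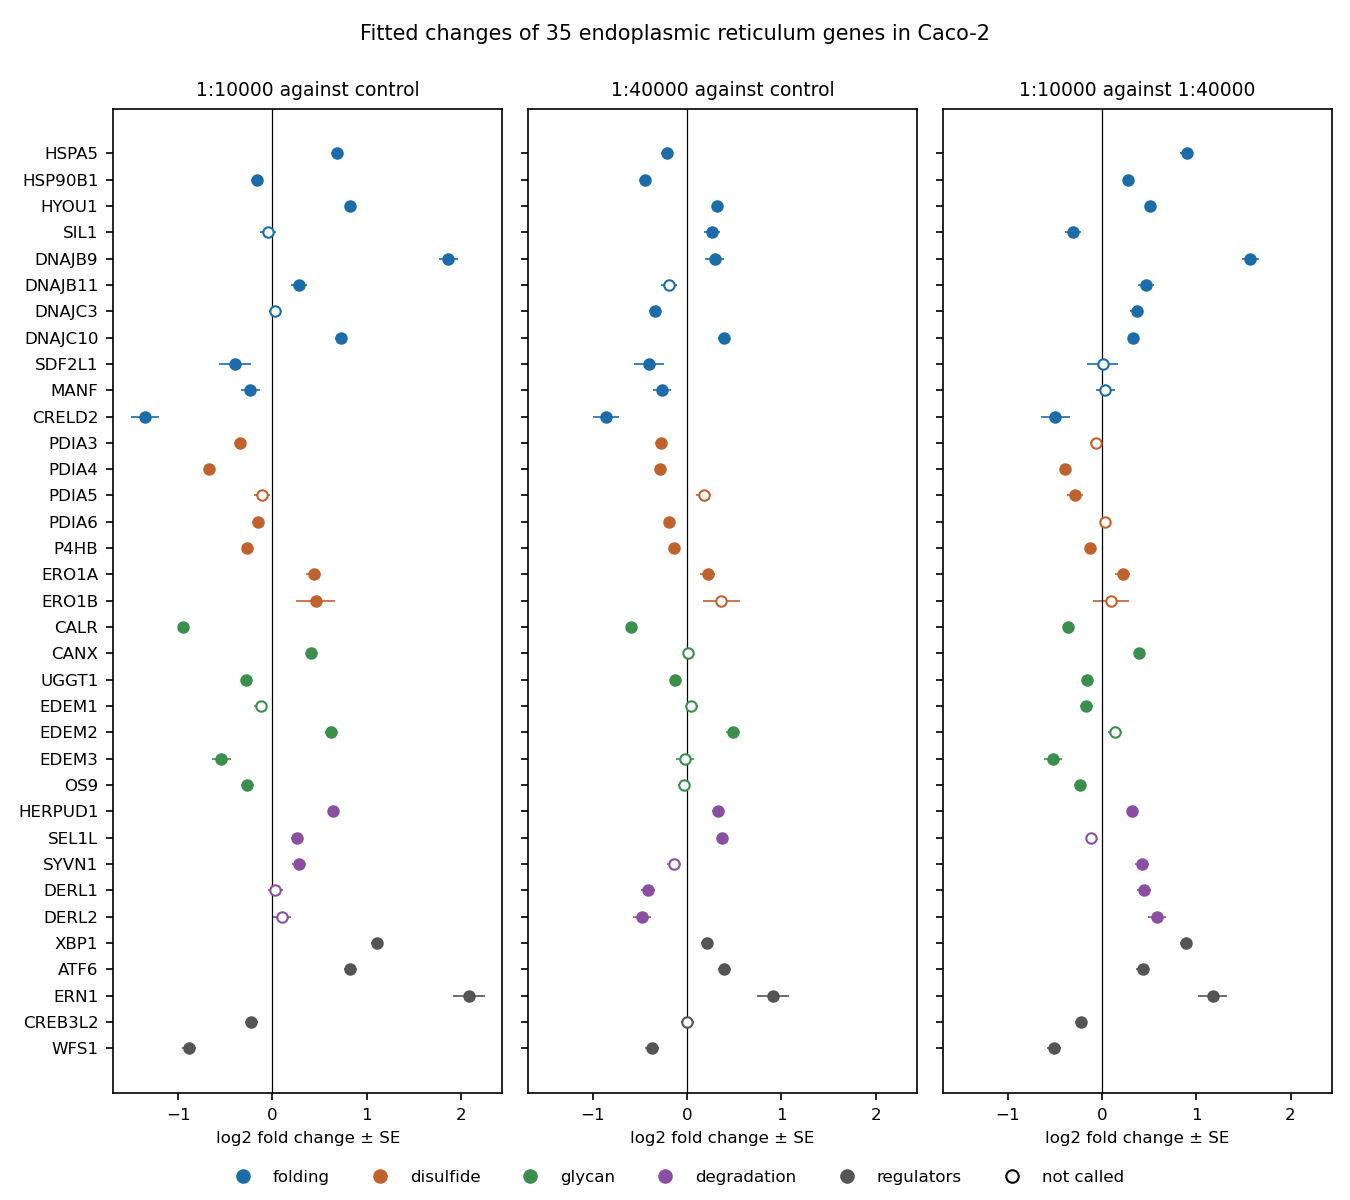
Fitted log2 fold change with its standard error (horizontal axis) for each of the 35 tested genes (vertical axis, grouped and coloured by branch) in the 3 comparisons; open circles did not pass an adjusted p of 0.05. At 1:10000 the values run from -1.35 (CRELD2) to 2.08 (ERN1), and at 1:40000 from -0.86 (CRELD2) to 0.91 (ERN1).

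A feature that some of these genes share is the ER stress element, a promoter sequence through which ATF6 and XBP1 act. It was searched on both strands of RefSeq promoters (GRCh38.p14, 250 bases before to 50 after the start) as an exact CCAAT and CCACG separated by 9 bases, and in its second form as ATTGG and CCACG separated by 1 base. A promoter was matched for 33 of the 36 members, and 10 of these (30.3%) held either form, against 37 of 27305 promoters in all (0.136%; the first listed for each symbol). The first form was in 7 member promoters (21.2%, against 0.0806% of all) and the second in 3 (9.09%, against 0.0549%). The core TGACGTG was in 2 member promoters (6.06%, against 2% of all), those of HYOU1 and DNAJC10, and in HYOU1 it overlaps the second form. The amino acid response core TGATGNAA was in 1 (3.03%, against 3.67%), that of HERPUD1. A match describes these letters only and is not a measured binding site, and imperfect copies were not searched.

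The 6 promoters below are shown because they hold the element and their genes moved in opposite directions at 1:10000: HSPA5, XBP1, HYOU1 and HERPUD1 rose, CALR and CRELD2 fell. Each is the 250 bases before the RefSeq start, 5′ to 3′ on the gene's strand, with the elements in capitals. They lie at chr9:125241344-125241593, minus strand (HSPA5), chr22:28800570-28800819, minus strand (XBP1), chr11:119057206-119057455, minus strand (HYOU1), chr16:56931892-56932141, plus strand (HERPUD1), chr19:12938359-12938608, plus strand (CALR) and chr22:49918384-49918633, plus strand (CRELD2).
HSPA5: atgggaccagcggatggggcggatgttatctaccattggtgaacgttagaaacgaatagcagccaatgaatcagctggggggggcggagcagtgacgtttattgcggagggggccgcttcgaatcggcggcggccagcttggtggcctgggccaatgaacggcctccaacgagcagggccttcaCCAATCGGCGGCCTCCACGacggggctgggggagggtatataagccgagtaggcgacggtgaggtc
XBP1: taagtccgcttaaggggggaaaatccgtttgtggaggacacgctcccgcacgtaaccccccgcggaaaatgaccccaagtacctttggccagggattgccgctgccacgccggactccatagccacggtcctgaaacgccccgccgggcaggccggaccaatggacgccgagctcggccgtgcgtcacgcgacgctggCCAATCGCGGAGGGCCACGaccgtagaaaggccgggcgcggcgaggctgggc
HYOU1: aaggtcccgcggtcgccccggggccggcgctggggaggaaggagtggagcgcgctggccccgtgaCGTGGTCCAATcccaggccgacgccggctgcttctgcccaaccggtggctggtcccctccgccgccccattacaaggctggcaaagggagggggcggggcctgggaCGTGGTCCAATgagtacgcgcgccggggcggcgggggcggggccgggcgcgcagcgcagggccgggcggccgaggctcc
HERPUD1: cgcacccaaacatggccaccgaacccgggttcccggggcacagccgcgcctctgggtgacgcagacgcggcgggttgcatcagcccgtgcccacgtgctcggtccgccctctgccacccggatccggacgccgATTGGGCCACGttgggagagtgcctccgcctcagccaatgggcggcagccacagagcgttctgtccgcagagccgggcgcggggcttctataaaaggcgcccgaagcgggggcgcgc
CALR: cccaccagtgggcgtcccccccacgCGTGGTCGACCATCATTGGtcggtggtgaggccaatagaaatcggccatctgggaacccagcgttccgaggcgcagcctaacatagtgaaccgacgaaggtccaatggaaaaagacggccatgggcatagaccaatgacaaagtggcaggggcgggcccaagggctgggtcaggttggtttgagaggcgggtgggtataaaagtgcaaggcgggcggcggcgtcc
CRELD2: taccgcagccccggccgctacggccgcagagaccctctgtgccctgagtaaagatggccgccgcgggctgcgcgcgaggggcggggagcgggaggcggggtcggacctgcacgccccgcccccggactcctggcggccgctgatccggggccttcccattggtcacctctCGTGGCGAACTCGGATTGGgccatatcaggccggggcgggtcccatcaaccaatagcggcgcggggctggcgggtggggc

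In HSPA5 the element lay at bases -66 to -48 from the start and in XBP1 at -52 to -34, both on the gene's strand. In CRELD2 it lay at -80 to -62 on the opposite strand, at a like distance from the start, and in CALR farther out at -225 to -207 on the opposite strand. HYOU1 held the second form at -185 to -175 and at -79 to -69, both on the opposite strand, and HERPUD1 held it at -117 to -107 on the gene's strand. The other members with the first form were HSP90B1 (-194 to -176 and -89 to -71), CANX (-151 to -133) and ERO1B (-243 to -225), and SDF2L1 held the second form (-188 to -178). Of the 10 members with either form, 6 rose and 4 fell against controls at 1:10000, with a median log2 fold change of 0.43. Of the 23 tested members with a matched promoter and neither form, 9 rose and 9 fell, with a median of -0.05. Among the 15 tested genes outside the 36 that hold either form, 5 rose and 4 fell at 1:10000 (median 0.10). Over all tested genes with a matched promoter and neither form, 33.1% rose and 37.6% fell at 1:10000 (median -0.05). At 1:40000 the 10 members with either form split into 3 higher and 5 lower (median -0.10) and those without into 8 and 8 (median -0.03). The 15 other genes with it split into 4 and 5 (median 0.02). Of all tested genes with a matched promoter and neither form, 23.8% rose and 28% fell at 1:40000 (median -0.03). Between the dilutions, where aligner and annotation are shared, 6 of the 10 members with either form were higher at 1:10000 and 2 lower (median 0.30). Of the members without it 9 were higher and 10 lower (median 0.03), and of the 15 other genes with it 7 were higher and 3 lower (median 0.12). Over all tested genes with a matched promoter, 13 of 25 with either form were higher between the dilutions and 5 lower (52% and 20%, median 0.28), beside 29.2% and 29.7% of those without (median -0.01). These shares are a description, with no test.

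**Figure D2:**
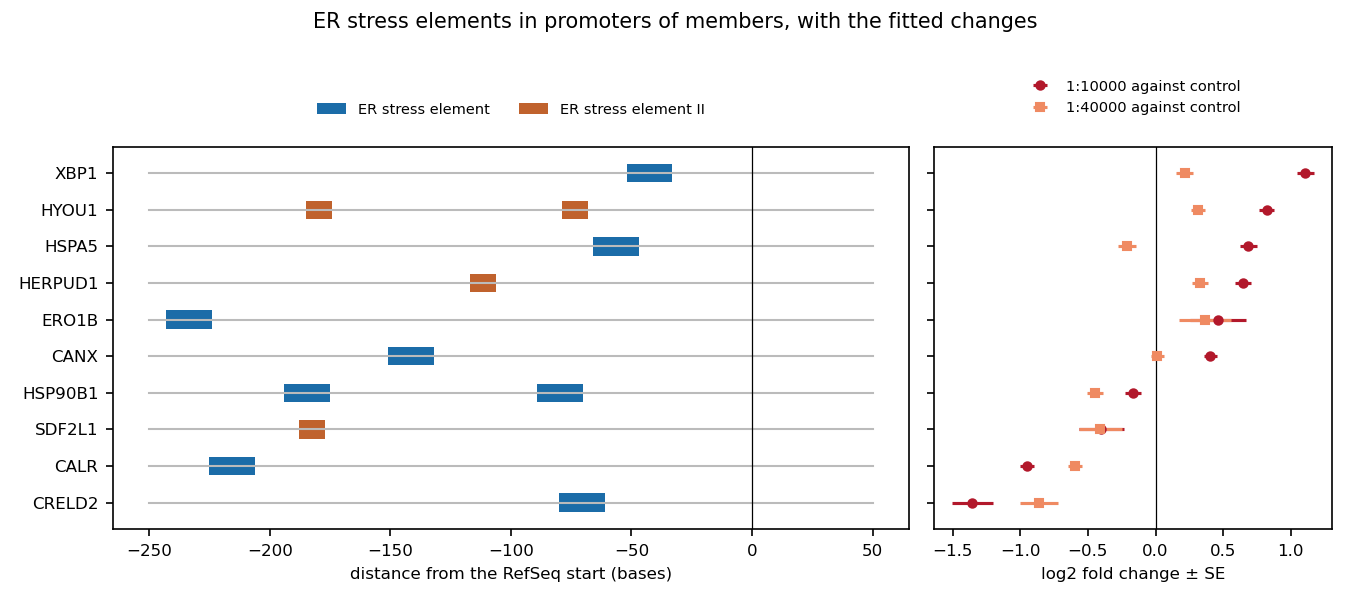
Left, position of exact ER stress elements (blocks; horizontal axis, bases from the RefSeq start at 0) in the 10 member promoters that hold either form; right, the log2 fold change with its standard error for the same genes at each dilution against controls. The elements of CRELD2 and HSPA5 lie at like distances, and the genes' changes at 1:10000 are -1.35 and 0.69.

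The counts of each branch below stand beside the shares over all genes tested. Of all genes, 34.8% rose and 36.2% fell at 1:10000, and 26.1% rose and 26% fell at 1:40000. Between the dilutions 28.3% were higher and 29% lower. The folding branch had the widest range of change at 1:10000, from -1.35 to 1.87. Of its 11 members, 5 rose and 4 fell at 1:10000, with a median log2 fold change of 0.03. At 1:40000, 4 rose and 6 fell (median -0.21), and between the dilutions 7 were higher and 2 lower (median 0.33). HSPA5, which encodes BiP, the central ER chaperone, read 809, 846, 771, 832 and 802 CPM in control replicates 1 to 5. It read 1591, 1294, 1184, 1219 and 1248 CPM at 1:10000 and 661, 689, 715, 731 and 710 CPM at 1:40000. No value of any group overlapped another group: every 1:10000 library was above all controls, and every 1:40000 library was below them. The log2 fold change was 0.69 ± 0.07 (SE) at 1:10000 (adjusted p = 1.24e-09, edgeR quasi-likelihood) and -0.21 ± 0.07 at 1:40000 (adjusted p = 0.00911). The dilutions differed by 0.90 ± 0.07 (adjusted p = 4.28e-11). Replicate 1 at 1:10000 stood above the others, and without it the change at 1:10000 was 0.62. The fall at 1:40000 was no longer called without the deepest and the shallowest library (-0.17, adjusted p = 0.0687) or without the filter on low counts (-0.14, adjusted p = 0.144).

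HSP90B1 encodes GRP94, the HSP90 of the ER, which completes the folding of selected clients after BiP. Its 5 control libraries read 1337, 1351, 1239, 1300 and 1278 CPM. At 1:10000 it read 1360, 1185, 1063, 1099 and 1090 CPM, and at 1:40000 992, 982, 950, 953 and 895 CPM. Replicate 1 at 1:10000 lay above every control while the other 4 lay below, and all 1:40000 libraries lay below all controls. The change was -0.17 ± 0.06 at 1:10000 (adjusted p = 0.0189) and -0.45 ± 0.06 at 1:40000 (adjusted p = 1.5e-06). The call at 1:10000 was lost without 1:10000 replicate 3, 4 or 5 (adjusted p = 0.0634, 0.0521 and 0.0576, edgeR quasi-likelihood). It was also lost without the filter on low counts (-0.16, adjusted p = 0.0566, same test).

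DNAJB9 encodes ERdj4, a J-domain partner of BiP that also binds and restrains IRE1. In controls it read 44.1, 31.6, 36.6, 36.3 and 33 CPM. It read 152, 125, 130, 122 and 126 CPM at 1:10000, and 50.4, 51.9, 42.2, 40.1 and 37.3 CPM at 1:40000. All 1:10000 libraries lay well above the other 10, and the 1:40000 range overlapped that of controls. The change was 1.87 ± 0.10 at 1:10000 (adjusted p = 1.54e-14) and 0.29 ± 0.10 at 1:40000 (adjusted p = 0.0156). The latter call was lost without control replicate 2 (0.24, adjusted p = 0.0531), without 1:40000 replicate 1 (0.22, adjusted p = 0.0707) and without the deepest and the shallowest library (0.16, adjusted p = 0.175). The dilutions differed by 1.57 ± 0.09 (adjusted p = 1.49e-12).

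HYOU1 encodes GRP170, a large chaperone that also exchanges BiP's nucleotide. Its controls read 421, 482, 474, 490 and 479 CPM, the 1:10000 libraries 774, 841, 847, 846 and 844 CPM and the 1:40000 libraries 599, 542, 572, 586 and 615 CPM. The 3 groups did not overlap and were in the order of concentration, with changes of 0.82 ± 0.05 (adjusted p = 1.29e-12) and 0.31 ± 0.05 (adjusted p = 3.49e-05). The annotation lists 22 HYOU1 transcripts outside the primary assembly and its identifier changed version between the files. DNAJC10, or ERdj5, reduces disulfides of proteins bound for degradation. It read 155, 138, 158, 162 and 162 CPM in controls, 270, 242, 276, 252 and 243 CPM at 1:10000 and 190, 199, 221, 204 and 205 CPM at 1:40000. Its groups did not overlap either, with changes of 0.73 ± 0.06 (adjusted p = 1.21e-10) and 0.39 ± 0.06 (adjusted p = 8.46e-06).

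CRELD2, an ER-resident calcium-binding protein, had the largest fall among the 35 members in both comparisons with controls. It read 22.8, 27.1, 25.1, 25.4 and 28.2 CPM in controls, 9.48, 7.73, 9.84, 13.1 and 10.1 CPM at 1:10000 and 9.63, 17.2, 15.6, 15.9 and 16 CPM at 1:40000. Every exposed library lay below every control, and 1:40000 replicate 1 lay within the 1:10000 range. The change was -1.35 ± 0.15 at 1:10000 (adjusted p = 1.49e-08) and -0.86 ± 0.14 at 1:40000 (adjusted p = 1.32e-05), and the latter was -0.69 without 1:40000 replicate 1. SDF2L1, which forms complexes with J-domain partners of BiP, read 13.6, 21.3, 20, 18.8 and 20.8 CPM in controls. It read 10.7, 13.8, 15.5, 15.4 and 17.1 CPM at 1:10000 and 10.1, 14.1, 16.4, 13.1 and 19.4 CPM at 1:40000. All 3 groups overlapped, and replicate 1 was the lowest in each. The changes of -0.40 ± 0.17 (adjusted p = 0.0377) and -0.41 ± 0.16 (adjusted p = 0.0374) lost their calls when any control but replicate 1 was left out. The change at 1:40000 was -0.25 without 1:40000 replicate 1 (adjusted p = 0.134) and -0.22 without the deepest and the shallowest library (adjusted p = 0.216), and its call was lost with upper-quartile scaling (adjusted p = 0.0669) and without a filter (adjusted p = 0.0879). That call was also lost without 1:40000 replicate 2 or 4 (adjusted p = 0.0575 and 0.0769). At 1:10000 SDF2L1 also lost its call without 1:10000 replicate 1 (-0.28, adjusted p = 0.138) or replicate 2 (adjusted p = 0.0779). Between the dilutions SDF2L1 differed by 0.01 ± 0.17 (adjusted p = 0.97).

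The remaining folding genes changed less. MANF, a secreted and ER-retained stabiliser of BiP complexes, averaged 55.7 ± 4.06 CPM in controls (SD, n = 5), 47.2 ± 3.55 at 1:10000 and 46.8 ± 7.42 at 1:40000, and fell in both comparisons (-0.23 and -0.27). At 1:40000 replicate 1 read 33.9 CPM and the others 48.1 to 51.7, and without it the change was -0.14 (adjusted p = 0.117). Leaving out control replicate 2 or 3 also ended the call at 1:40000 (adjusted p = 0.0657 and 0.0598), as did leaving out the deepest and the shallowest library (-0.13, adjusted p = 0.182). The call at 1:10000 was lost without control replicate 2 or 3 or without 1:10000 replicate 1, 2 or 3 (adjusted p = 0.0957, 0.0854, 0.0708, 0.128 and 0.0852). The J-domain protein DNAJB11 rose at 1:10000 by 0.28 (75.2 ± 4.89 CPM in controls and 91.1 ± 7.28 at 1:10000) and did not pass at 1:40000 (-0.19). DNAJB11 was called lower at 1:40000 without 1:40000 replicate 3 or 5 (-0.24 each, adjusted p = 0.0274 and 0.0229, edgeR quasi-likelihood). DNAJC3, the J-domain protein also known as an inhibitor of PERK, did not pass at 1:10000 (0.03) and fell at 1:40000 (-0.34). SIL1, another nucleotide exchange factor of BiP, did not pass at 1:10000 (-0.05) and rose at 1:40000 (0.26), a call that was lost without 1:40000 replicate 1 (0.21, adjusted p = 0.0536) and without the deepest and the shallowest library (0.17, adjusted p = 0.127).

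**Figure D3:**
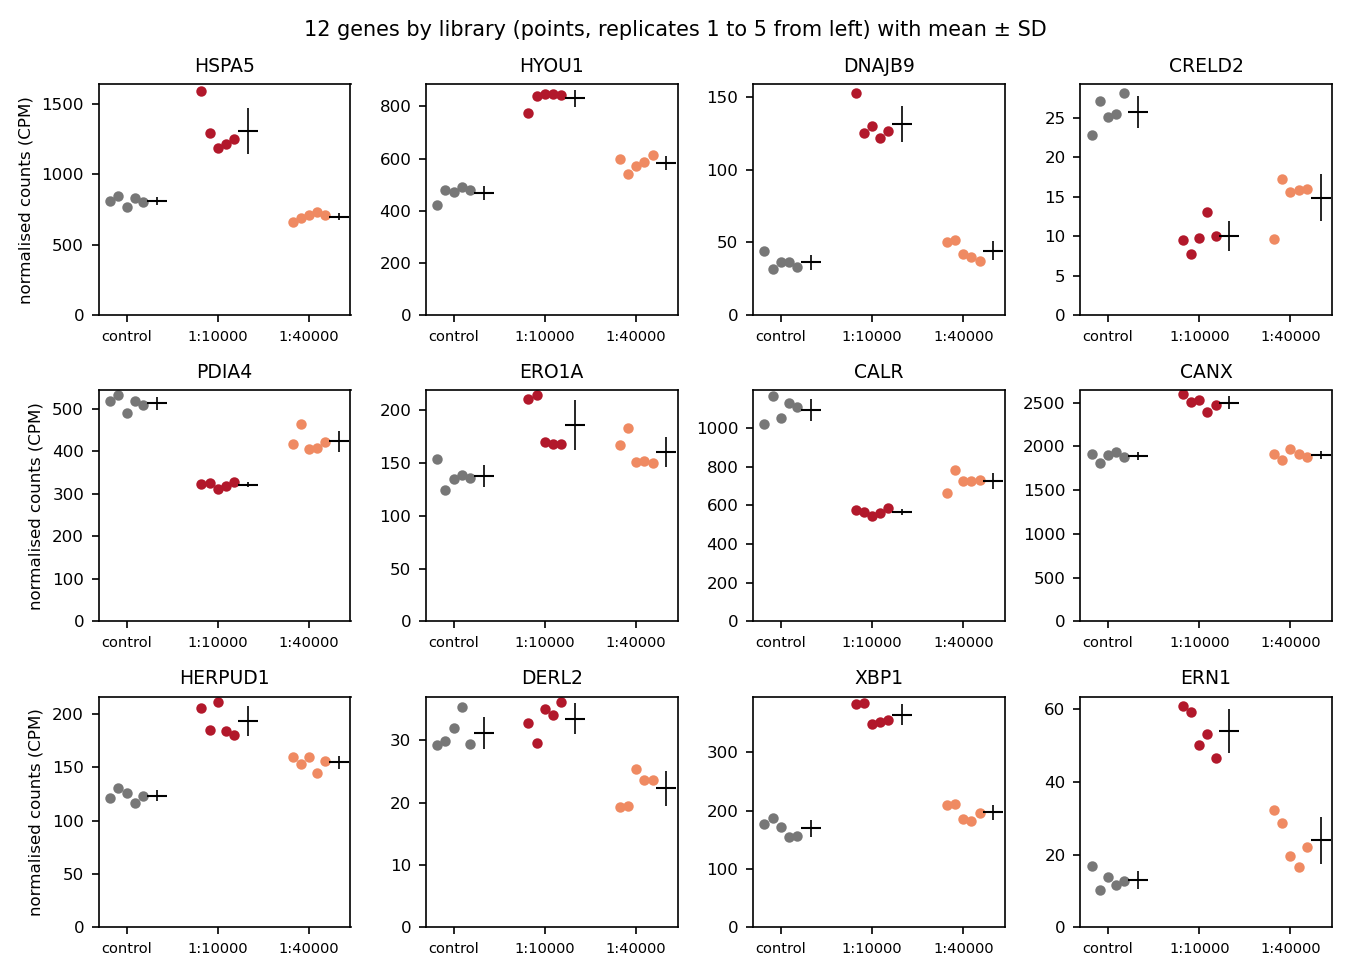
Normalised counts in CPM (vertical axes, each starting at 0) of 12 genes in every library, by group (horizontal axis; points are replicates 1 to 5 from the left, crosses the mean with its SD). HSPA5 is highest at 1:10000 (1184 to 1591 CPM) and lowest at 1:40000 (661 to 731 CPM), while CALR is lower in every exposed library than in any control.

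In the disulfide branch more genes fell than rose against controls, where 36.2% of all genes fell at 1:10000 and 26% at 1:40000. Of 7 members, 2 rose and 4 fell at 1:10000 (median -0.16), 1 rose and 4 fell at 1:40000 (median -0.14), and 1 was higher and 3 lower between the dilutions (median -0.07). PDIA4, a protein disulfide isomerase with several thioredoxin domains, read 519, 532, 491, 518 and 510 CPM in controls. It read 323, 325, 313, 319 and 329 CPM at 1:10000 and 418, 464, 405, 408 and 421 CPM at 1:40000. The 3 groups did not overlap, and the level was lower at the higher concentration. The change was -0.68 ± 0.05 at 1:10000 (adjusted p = 1.3e-11), -0.28 ± 0.05 at 1:40000 (adjusted p = 4.78e-05) and -0.39 ± 0.05 between the dilutions (adjusted p = 4.25e-07).

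ERO1A, the oxidase that supplies disulfides to the isomerases, moved the other way. It read 153, 125, 135, 138 and 135 CPM in controls, 210, 214, 170, 168 and 168 CPM at 1:10000 and 167, 183, 151, 151 and 150 CPM at 1:40000. In both exposed groups replicates 1 and 2 were higher than replicates 3 to 5, and control replicate 1 was the highest of the controls. The change was 0.44 ± 0.08 at 1:10000 (adjusted p = 2.43e-05) and 0.22 ± 0.08 at 1:40000 (adjusted p = 0.0219). The call at 1:40000 was lost without control replicate 2 (0.18, adjusted p = 0.0652), without 1:40000 replicate 2 (0.18, adjusted p = 0.0599) and without the deepest and the shallowest library (0.14, adjusted p = 0.158).

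The classical isomerase P4HB averaged 862 ± 36 CPM in controls, 717 ± 25.3 at 1:10000 and 781 ± 41.2 at 1:40000 (SD, n = 5) and fell in both (-0.27 and -0.14). The call at 1:40000 was lost without control replicate 3 (adjusted p = 0.0793), 1:40000 replicate 1 (adjusted p = 0.0512) or 1:40000 replicate 2 (adjusted p = 0.0989), and the change was -0.09 without the deepest and the shallowest library (adjusted p = 0.215). PDIA3, or ERp57, which works with calnexin and calreticulin on glycoproteins, averaged 636 ± 30.8, 500.0 ± 37.6 and 524 ± 21.7 CPM and fell in both (-0.35 and -0.28). Reads of PDIA3 may be shared with the pseudogenes PDIA3P1 and PDIA3P2. PDIA6 fell in both (-0.16 and -0.19), and PDIA5 passed in neither (-0.11 and 0.17). The second oxidase ERO1B was low (2.5 CPM in controls and 3.35 at 1:10000), rose at 1:10000 with an adjusted p of 0.0488 (0.46 ± 0.21) and did not pass at 1:40000 (0.36). At 1:10000 ERO1B lost its call when any 1 library of the comparison other than control replicate 3 was left out (adjusted p = 0.0504 to 0.119), and without that control ERO1B passed at 1:40000 (adjusted p = 0.0455). Between the dilutions P4HB lost its call without 1:10000 replicate 1, 2, 4 or 5 or 1:40000 replicate 3, 4 or 5. PDIA5 lost its call there without the deepest and the shallowest library, and ERO1A without 1:10000 replicate 1 or 2.

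In the glycan branch the lectins calreticulin and calnexin, which share a ligand on glycoproteins, moved apart. CALR, the soluble lectin, read 1021, 1164, 1053, 1128 and 1112 CPM in controls. It read 577, 567, 545, 563 and 585 CPM at 1:10000 and 666, 783, 726, 727 and 731 CPM at 1:40000. Every exposed library lay below every control, and the 1:10000 libraries lay below all 1:40000 libraries. The change was -0.95 ± 0.05 (adjusted p = 7.18e-14) and -0.59 ± 0.05 (adjusted p = 1.29e-09), and -0.36 ± 0.05 between the dilutions (adjusted p = 4.82e-06). CANX, the membrane-bound lectin, read 1915, 1807, 1901, 1932 and 1881 CPM in controls, 2598, 2507, 2534, 2387 and 2470 CPM at 1:10000 and 1909, 1846, 1970, 1915 and 1874 CPM at 1:40000. All 1:10000 libraries were above the other 10, and the 1:40000 libraries lay among and just above the controls. CANX rose by 0.41 ± 0.05 at 1:10000 (adjusted p = 6.22e-08), did not pass at 1:40000 (0.01 ± 0.05, adjusted p = 0.851) and was higher at 1:10000 than at 1:40000 by 0.39 ± 0.05 (adjusted p = 2.51e-07). On a scale of CPM per kilobase of exon, CALR had the highest mean level of the 36 in controls (404) with CANX next (303), and at 1:10000 CANX was first (401), ahead of HSPA5 (335), HSP90B1 (247) and CALR (209). The annotation lists 19 CANX transcripts outside the primary assembly.

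The mannosidase-like proteins, which mark misfolded glycoproteins for degradation, also differed among themselves. EDEM2 read 51.5, 52, 54.4, 50.9 and 53.2 CPM in controls, 73.8, 86.5, 79.2, 81 and 84 CPM at 1:10000 and 84.7, 71.8, 68, 74.2 and 66.7 CPM at 1:40000. Both exposed groups were above all controls and overlapped each other, with changes of 0.63 ± 0.07 (adjusted p = 3.47e-08) and 0.49 ± 0.07 (adjusted p = 3.85e-06). The dilutions differed by 0.14 ± 0.07 (adjusted p = 0.101), which became a call without 1:40000 replicate 1 (0.21, adjusted p = 0.0101). EDEM3 read 40.1, 30.8, 32.4, 36.9 and 31.1 CPM in controls, 23.5, 20.6, 28, 23.9 and 20.6 CPM at 1:10000 and 30.5, 30.6, 36.3, 34.7 and 35 CPM at 1:40000. The 1:10000 libraries were below all others, with a change of -0.54 ± 0.10 (adjusted p = 3.37e-05), while 1:40000 did not pass (-0.03 ± 0.10, adjusted p = 0.832). EDEM1 passed in neither comparison with controls (-0.13 and 0.04), but was called lower at 1:10000 without control replicate 2 (-0.16, adjusted p = 0.0493, edgeR quasi-likelihood). UGGT1, which adds glucose back to unfolded glycoproteins, fell in both (-0.28 and -0.13, the latter with an adjusted p of 0.0478). That call was lost without any 1 of the 5 controls and without 1:40000 replicate 1, 2 or 5, and the change at 1:40000 was -0.07 without the deepest and the shallowest library (adjusted p = 0.354). OS9, the lectin that delivers glycoproteins to the ligase, fell at 1:10000 (-0.27) and did not pass at 1:40000 (-0.04). Over the 7 glycan genes, 2 rose and 4 fell at 1:10000 (median -0.27), 1 rose and 2 fell at 1:40000 (median -0.03), and 1 was higher and 5 lower between the dilutions (median -0.17). Between the dilutions EDEM1 lost its call without 1:10000 replicate 1, 2, 4 or 5 or 1:40000 replicate 3, 4 or 5. UGGT1 lost its call there without 1:10000 replicate 2 or 1:40000 replicate 3, and OS9 without the deepest and the shallowest library.

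In the degradation branch no tested member fell at 1:10000: 3 of 5 rose (median 0.26), where 34.8% of all genes rose and 36.2% fell. At 1:40000, 2 rose and 2 fell (median -0.14), and between the dilutions 4 were higher and none lower (median 0.42). EDEM3 and OS9, which fell at 1:10000, are counted here with the glycan branch; with EDEM1, EDEM2, EDEM3 and OS9 placed in degradation the medians were 0.10 at 1:10000, -0.03 at 1:40000 and 0.14 between the dilutions. HERPUD1, which organises the ligase complex, read 121, 131, 126, 117 and 123 CPM in controls, 206, 185, 212, 184 and 180 CPM at 1:10000 and 159, 153, 160, 145 and 156 CPM at 1:40000. Its 3 groups did not overlap and were in the order of concentration, with changes of 0.65 ± 0.06 (adjusted p = 5.09e-10) and 0.33 ± 0.06 (adjusted p = 5.79e-05). SEL1L, the adaptor that holds SYVN1 and its substrates, read 194, 196, 184, 201 and 195 CPM in controls, 227, 226, 239, 234 and 233 CPM at 1:10000 and 275, 260, 246, 242 and 232 CPM at 1:40000. Both exposed groups lay above all controls, and the 1:40000 mean was the higher of them. The changes were 0.26 ± 0.05 (adjusted p = 1.85e-04) and 0.37 ± 0.05 (adjusted p = 3.39e-06). The dilutions differed by -0.11 ± 0.05 (adjusted p = 0.0715), and by -0.16 with upper-quartile scaling (adjusted p = 0.0132).

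DERL2 belongs to the derlins, rhomboid-like proteins that help move substrates out of the ER. It read 29.2, 29.9, 31.9, 35.4 and 29.5 CPM in controls, 32.8, 29.5, 34.9, 34 and 36.2 CPM at 1:10000 and 19.2, 19.5, 25.5, 23.6 and 23.7 CPM at 1:40000. Every 1:40000 library was below every other library, and the 1:10000 libraries overlapped the controls. The change was 0.10 ± 0.09 at 1:10000 (adjusted p = 0.346), -0.48 ± 0.09 at 1:40000 (adjusted p = 1.43e-04) and 0.58 ± 0.09 between the dilutions (adjusted p = 1.15e-05). DERL1 had the same pattern of calls, with 0.03, -0.42 and 0.45. SYVN1, the ubiquitin ligase itself, averaged 43.1 ± 2.08 CPM in controls, 52.4 ± 4.91 at 1:10000 and 38.9 ± 2.46 at 1:40000 (SD, n = 5). It rose at 1:10000 (0.28), did not pass at 1:40000 (-0.14) and differed by 0.42 between the dilutions. Exons of SYVN1 overlap those of FAU on the same strand by 398 bases.

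DERL3, the remaining derlin (chr22:23834503-23839128, minus strand, GRCh38), was counted 43 times over the 5 control libraries (3 to 15 per library) and 0 times in all 10 rinse aid libraries. Against a floor of 3 counts over the group this is at least 11.7-fold lower at 1:10000 and at least 75.7-fold lower at 1:40000, for counting error only. Without 1:40000 replicate 1, the deepest library, the latter is at least 16.7-fold. DERL3 exons overlap those of SMARCB1, on the opposite strand, by 2923 bases, and SMARCB1 had 2160 control counts and 1 count in each rinse aid group. The annotation lists 10 DERL3 transcripts outside the primary assembly. The loss falls in all files made with HISAT2, so exposure and aligner cannot be told apart for it. With DERL3 at its bound, the degradation median was 0.18 at 1:10000 and -0.28 at 1:40000.

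The regulators had the highest branch median against controls at both dilutions. Of 5 genes, 3 rose and 2 fell at 1:10000 (median 0.83), 3 rose and 1 fell at 1:40000 (median 0.21), and 3 were higher and 2 lower between the dilutions (median 0.43). ERN1, the IRE1 kinase and nuclease that splices XBP1 mRNA, read 17, 10.4, 13.8, 11.6 and 12.8 CPM in controls. It read 60.9, 59.2, 49.9, 53.1 and 46.4 CPM at 1:10000 and 32.4, 28.6, 19.7, 16.5 and 22.1 CPM at 1:40000. The 1:10000 libraries were above all others, and the 1:40000 libraries lay between, with 1 of them (replicate 4) under the highest control. The change was 2.08 ± 0.17 (adjusted p = 2.48e-09) and 0.91 ± 0.17 (adjusted p = 2.29e-04), and 1.17 ± 0.15 between the dilutions (adjusted p = 3.33e-06). Without the deepest and the shallowest library the change at 1:40000 was 0.63 (adjusted p = 3.63e-04).

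XBP1, the transcription factor that IRE1 activates by splicing, read 177, 188, 172, 154 and 157 CPM in controls, 384, 384, 349, 352 and 356 CPM at 1:10000 and 209, 212, 185, 182 and 197 CPM at 1:40000. All 1:10000 libraries were above the other 10, and 2 of the 1:40000 libraries (replicates 3 and 4) lay under the highest control. The change was 1.11 ± 0.06 at 1:10000 (adjusted p = 7.32e-14), 0.21 ± 0.06 at 1:40000 (adjusted p = 0.00624) and 0.89 ± 0.06 between the dilutions (adjusted p = 1.87e-11). The call at 1:40000 was lost without the deepest and the shallowest library (0.16, adjusted p = 0.0642). Counts per gene do not show how much XBP1 mRNA was spliced, and reads may be shared with the pseudogene XBP1P1. The identifier of XBP1 changed version between the files, as did those of HYOU1, PDIA3, ERO1B, EDEM3 and CREB3L2. ATF6, the membrane-bound factor that is cut in the Golgi to reach the nucleus, averaged 57.1 ± 4.48 CPM in controls, 102 ± 3.47 at 1:10000 and 75.9 ± 5.37 at 1:40000 (SD, n = 5). Its 3 groups did not overlap, with changes of 0.83 (adjusted p = 6.38e-11) and 0.40 (adjusted p = 2.78e-05).

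WFS1, the ER membrane protein wolframin that restrains ATF6 signalling, fell. It read 71.9, 69.5, 74.5, 71.2 and 73.1 CPM in controls, 32.9, 37.9, 40, 40.7 and 43.6 CPM at 1:10000 and 54.4, 55, 52.6, 59.8 and 56.5 CPM at 1:40000. The 3 groups did not overlap, and the level was lower at the higher concentration, with changes of -0.89 ± 0.07 (adjusted p = 9.05e-11) and -0.37 ± 0.07 (adjusted p = 9.43e-05). CREB3L2, a relative of ATF6, fell at 1:10000 (-0.22) and did not pass at 1:40000 (0.00).

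The level of a branch is the mean log2(CPM + 1) of its tested genes in a library, given as mean ± SD over 5 libraries. Regulators stood at 6.28 ± 0.05 in controls, 6.84 ± 0.02 at 1:10000 and 6.49 ± 0.12 at 1:40000. Folding genes stood at 6.77 ± 0.02, 6.98 ± 0.03 and 6.65 ± 0.08, and degradation genes at 6.27 ± 0.04, 6.53 ± 0.05 and 6.20 ± 0.04. Glycan genes stood at 7.79 ± 0.04, 7.63 ± 0.02 and 7.76 ± 0.02, and disulfide genes at 7.52 ± 0.04, 7.40 ± 0.08 and 7.48 ± 0.06. At 1:10000 the regulator, folding and degradation levels of all 5 libraries were above all controls, and the glycan levels were below all controls. At 1:40000 the folding levels were below all controls and the regulator levels above them. Differences between branches were described and not tested, since genes of a branch are not replicates.

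**Figure D4:**
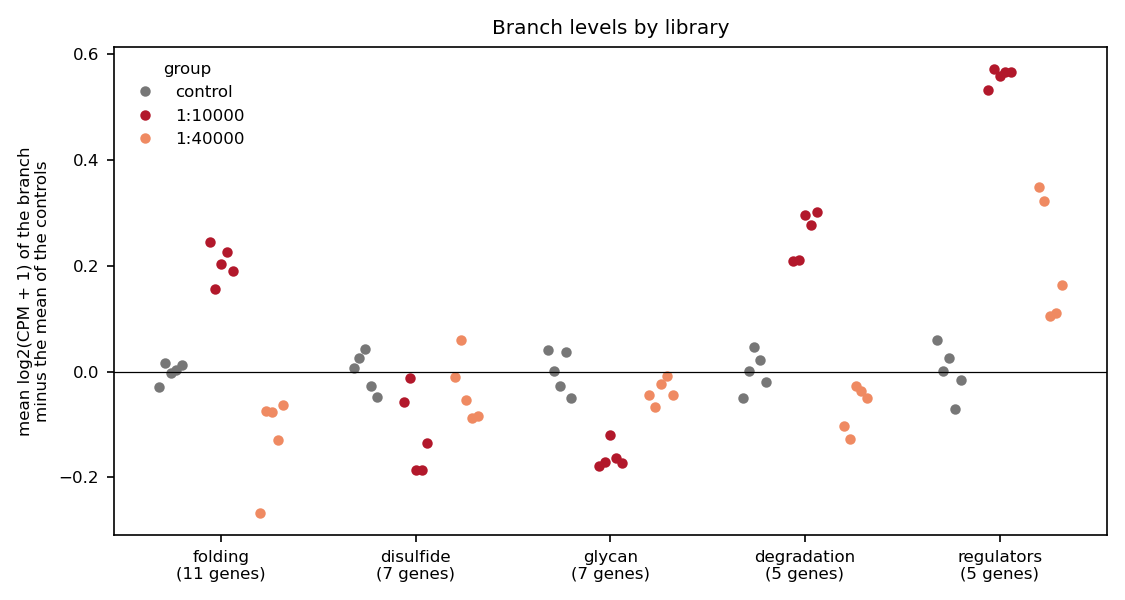
Mean log2(CPM + 1) of the tested genes of each branch in every library, less the mean of the 5 controls (vertical axis), by branch (horizontal axis) and group (colour). At 1:10000 the regulators lie highest and the glycan genes below the controls, and at 1:40000 the folding genes of replicate 1 lie lowest.

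Other genes of the same pathways were taken from 4 further lists. Their counts stand beside the shares of all genes called, 34.8% higher and 36.2% lower at 1:10000 (71% in all). At 1:40000 these shares were 26.1% and 26% (52.1%), and between the dilutions 28.3% and 29% (57.3%). Of 15 tested sensors, proteases and downstream factors, 9 rose and 3 fell at 1:10000, 8 rose and 1 fell at 1:40000, and 7 were higher and 3 lower between the dilutions. DDIT3, the pro-apoptotic factor CHOP downstream of PERK, had the largest rise of that list, from 8.84 ± 1.00 CPM to 88.8 ± 9.46 at 1:10000 and 46.5 ± 10.8 at 1:40000 (3.33 and 2.40; adjusted p = 8.53e-14 and 4.22e-11). ATF6B, a paralogue of ATF6, had 989 control counts and 0 in all 10 rinse aid libraries, at least 269-fold lower at 1:10000. Of 24 tested genes of the degradation machinery, 7 rose and 6 fell at 1:10000, 4 rose and 10 fell at 1:40000, and 11 were higher and 2 lower between the dilutions. SELENOK, a selenoprotein of the degradation complex, rose at 1:10000 (33.0 ± 3.01 to 73.3 ± 3.48 CPM; 1.16, adjusted p = 4.39e-13) and did not pass at 1:40000 (0.02). RNF5, a membrane ubiquitin ligase, had 1166 control counts, 0 at 1:10000 and 1 at 1:40000. As for DERL3, exposure and aligner cannot be told apart for ATF6B and RNF5, for which the annotation lists 24 and 12 transcripts outside the primary assembly. Exons of DDIT3 overlap those of MARS on the opposite strand by 355 bases. The identifier of SELENOK changed version between the files, and its reads may be shared with the pseudogenes SELENOKP1, SELENOKP2 and SELENOKP3.

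Of 24 tested disulfide and folding enzymes outside the 36, 6 rose and 10 fell at 1:10000, 7 rose and 11 fell at 1:40000, and 8 were higher and 6 lower between the dilutions. The J-domain protein DNAJC1 had the largest rise (1.04, from 34.7 ± 3.52 to 70.9 ± 5.04 CPM) and SDF2, a paralogue of SDF2L1, the largest fall (-1.20, from 35.2 ± 3.86 to 15.3 ± 1.22 CPM) at 1:10000. Of 24 tested genes of the translocon, oligosaccharide transfer and glucose trimming, 4 rose and 11 fell at 1:10000, 2 rose and 10 fell at 1:40000, and 8 were higher and 5 lower between the dilutions. MOGS, the glucosidase that starts glycan trimming, fell by 1.20 on the log2 scale at 1:10000 (113 ± 7.17 to 49.6 ± 7.89 CPM). NGLY1, which removes glycans from proteins in the cytosol, rose there by 1.01 (21.9 ± 2.05 to 44.3 ± 1.37 CPM). The identifier of MOGS changed version between the files.

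Over all genes, GC content moved with the changes in the comparisons that include 1:10000, and not at 1:40000 against controls. GC content was taken from the longest transcript of each gene in GENCODE 29. The members that rose at 1:10000 had a median GC of 41.5% and those that fell 51.7%. Between the dilutions the medians were 41.4% for the higher and 52.4% for the lower members, and at 1:40000 against controls 41.5% and 46%. Over all genes, the median log2 fold change at 1:10000 went from 0.15 in the lowest of 5 equal classes of GC to -0.17 in the highest, and between the dilutions from 0.14 to -0.19. Across the 35 members, Spearman's rho of GC with the log2 fold change was -0.37 at 1:10000, -0.21 at 1:40000 and -0.36 between the dilutions, and over 13119 genes it was -0.15, 0.00 and -0.21. Genes are not independent replicates and share their libraries, and the part of GC content in the members' changes was not tested.

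**Figure D5:**
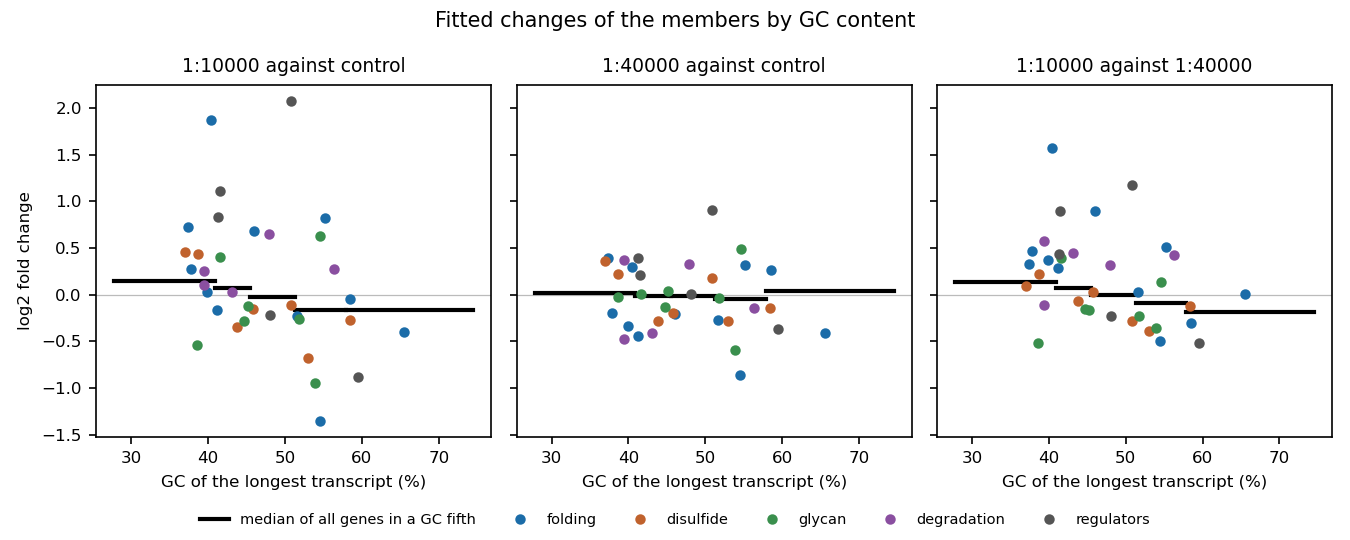
Log2 fold change (vertical axis) of the 35 tested genes against the GC content of the longest transcript in percent (horizontal axis), coloured by branch, in the 3 comparisons; black bars are the medians of all genes in each of 5 equal classes of GC content. At 1:10000 the medians fall from 0.15 to -0.17, while members spread from -1.35 to 2.08.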

How the data were processed

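Gene counts from 15 Caco-2 libraries were deposited by the authors as 1 table per library (whole-number counts per Ensembl gene). Per the file headers, control files came from RNA STAR and rinse aid files from HISAT2. Per the labels' protocols, RNA came from the RNeasy Plus Micro Kit and polyadenylated libraries from the TruSeq RNA Kit. Among the tools and builds in the submitters' processing notes are featureCounts, STAR (2.7.9a), DESeq2 (1.32.0), cutadapt and the GRCh38 genome. The annotation release and strand setting are not given in the sources used here, so reads of overlapping or antisense genes cannot be told apart (20 of the 36 genes have exons that overlap another gene's).

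Tables were joined on Ensembl identifiers without version (60557 shared, of which 3798 changed version). Exon lengths came from GENCODE 29 and promoters from RefSeq. Symbols came from a separate list of gene names, and from GENCODE 29 for identifiers without a symbol there. The deposited counts were tested with edgeR 4.0.16 (R 4.3.3) by its robust quasi-likelihood test with TMM scaling, filterByExpr by group (13157 genes) and 3 group means fitted to all 15 libraries. Adjustment was Benjamini-Hochberg within each of 3 comparisons, and calls were made at an adjusted p under 0.05. Standard errors are the log2 fold change over the root of its F statistic and so approximate. The 2 comparisons with controls share the control libraries. The steps were checked on simulated data. Values were printed for every library for HSPA5, HSP90B1, XBP1, DNAJB9, HERPUD1 and SDF2L1, and for the called gene with the highest and the lowest change in each branch and comparison (mean of at least 5 CPM over all libraries); in each further list the highest and lowest called gene at 1:10000 was named. HYOU1 was added after its values were seen. The 36 genes, branches and lists were chosen with earlier results of these data known. Alternatives were DESeq2 1.42.0, upper-quartile scaling, no filter, a replicate block, only the compared groups, each library left out, the deepest and shallowest left out together, genes of unchanged version, another branch for EDEM1, EDEM2, EDEM3 and OS9, a shorter promoter window and, added after seeing the data, only genes without a counting caution, genes outside the naming rule with libraries left out, and the DERL3 bound without the deepest library.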

Additional observations from a re-analysis of the deposited data

Results flagged for a closer look

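In 8 of 105 sets of 5 libraries (35 genes in 3 groups), 1 library stood apart from the other 4 by Dixon's criterion, which chance meets in about 1 in 20 sets. At 1:10000, replicate 1 read 1591 CPM for HSPA5 (the others 1184 to 1294), 774.4 CPM for HYOU1 (the others 841 to 847.2) and 152.3 CPM for DNAJB9 (the others 121.9 to 129.6). At 1:40000, replicate 1, the deepest library, read 33.86 CPM for MANF (the others 48.12 to 51.71) and 9.635 CPM for CRELD2 (the others 15.57 to 17.19), and replicate 2, the shallowest, read 464.4 CPM for PDIA4 (the others 404.6 to 421.3). Control replicate 1 read 421.4 CPM for HYOU1 (the others 473.9 to 490.2), and control replicate 2 read 689.8 CPM for PDIA3 (the others 615.5 to 632.7).

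HSPA5 was called in opposite directions at the dilutions, higher than controls at 1:10000 and lower at 1:40000, and the test of the difference gave 0.8994 on the log2 scale (adjusted p = 4.28e-11, edgeR quasi-likelihood), with all 5 libraries at 1:10000 above all 5 at 1:40000.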

How the results depend on the processing

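The number of members called kept within 1.5 times its main value in both directions under DESeq2, upper-quartile scaling, no filter, the replicate block, the fit of only the compared groups and the unchanged-version genes. Leaving out 1 library at a time gave 14 to 15 higher and 12 to 14 lower at 1:10000, 9 to 12 and 11 to 16 at 1:40000, and 15 to 17 and 9 to 12 between the dilutions. Without the deepest and the shallowest library, 7 members rose at 1:40000. Among members without a counting caution the counts were 6 higher and 5 lower at 1:10000, 5 and 7 at 1:40000 and 5 and 3 between the dilutions, since only 12 of the 36 are left. Elements in the 150 bases at the end of the promoter window were found in 5 members.

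The branch medians below moved by more than the spread between replicates. Upper-quartile scaling gave degradation -0.0903 and glycan 0.0239 at 1:40000, and degradation 0.3749 and glycan -0.2147 between the dilutions. Without a filter, the median of all genes shifted to 0.162 at 1:40000 and -0.207 between the dilutions. That setting gave degradation 0.1858 at 1:10000. At 1:40000 it gave degradation -0.203, disulfide -0.0659, folding -0.1372, glycan 0.0482 and regulators 0.2921, and between the dilutions degradation 0.3023, disulfide -0.1348, folding 0.2657 and glycan -0.2356. Without the deepest and the shallowest library, folding was -0.1325 and glycan 0.0296 at 1:40000, and degradation 0.3647 and glycan -0.1997 between the dilutions. With unchanged-version genes, glycan was -0.2008 at 1:10000, regulators 0.3944 at 1:40000 and disulfide -0.1291 between the dilutions. With the EDEM genes and OS9 counted as degradation, degradation was 0.1005 at 1:10000, -0.0271 at 1:40000 and 0.1369 between the dilutions, and glycan -0.1282 at 1:40000. Leaving out 1 library gave folding 0.0007 to 0.0877 at 1:10000 and -0.2441 to -0.1448 at 1:40000. It gave glycan -0.3055 to -0.2145, -0.0476 to 0.029 and -0.1946 to -0.1358 in the 3 comparisons, and degradation 0.3817 to 0.4727 between the dilutions. Beyond what the settings themselves change, the cause was not tested.

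Of single genes, values near 0 changed sign. EDEM3 at 1:40000 was 0.0239 with upper-quartile scaling, 0.0482 without a filter, 0.0547 without the deepest and the shallowest library, and -0.0669 to 0.0387 with 1 library left out. SDF2L1 between the dilutions was -0.0367, -0.0558 and -0.1623 in those settings, -0.0071 with the replicate block and -0.1505 to 0.1337 with 1 library left out. CANX at 1:40000 reached -0.0037 and -0.0003 without control replicate 2 or 1:40000 replicate 3.

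Same-numbered libraries did not deviate together in every pair: the correlations of their deviations ran from -0.05 to 0.058 at 1:10000 against controls, 0.06 to 0.135 at 1:40000 and 0.045 to 0.281 between the dilutions, and 1, 3 and 3 of 5 libraries correlated best with their own number. With the replicate block, 9592, 7314 and 8012 genes were called in the 3 comparisons (9343, 6858 and 7542 without it), and the members split 14 and 14, 12 and 15, and 16 and 12. In controls, mitochondrial ribosomal RNA took 0.349 and 0.336% of counts in replicates 1 and 2 and 0.216 to 0.274% in the others. At 1:40000 it took 1.24 and 1.19% against 0.626 to 0.791%, while at 1:10000 the ranges overlapped. The deepest and the shallowest library are 1:40000 replicates 1 and 2. When both are left out, depth and this difference between replicates cannot be told apart. The labels name no batch, and its part was not tested.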
